A study of Zea mays with 19 samples.

Results

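miR168 and miR162 are the plant miRNA families that act back on the small RNA machinery. In plants, miR168 guides the cleavage of transcripts of ARGONAUTE1, the protein that holds a mature miRNA and cuts its targets, and miR162 guides the cleavage of transcripts of DICER-LIKE1, the enzyme that cuts miRNAs out of their hairpin precursors. Each family thus forms a feedback loop on the pathway that makes it. A hairpin yields a 5p and a 3p strand, of which one is usually loaded into ARGONAUTE and the other is usually rarer: for miR168 the loaded strand is 5p, for miR162 it is 3p.

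The members are all sequences whose miRNA name belongs to family miR168 or miR162, with any species prefix and from both arms, summed over the precursor entries that share a sequence. They are 5 of 536 sequences, 4 of miR168 and 1 of miR162, from 6 of the table's 782 entries. The sequences came from embryos of 2 maize inbred lines derived from the population Yuzong5. Each sample pooled the embryos of 5 seeds, and germination ran at 25 °C. There were 6 groups with 3 biological replicates each, 18 libraries in all. Yu537A, which germinates late, was sampled 53 h after imbibition with gibberellin (GA3, 400 mg/L), and without it at 6, 53 and 78 h. Yu82, which germinates early, was sampled at 53 h and 6 h. They are called the late and the early line here. The labels state that Yu537A seeds were pretreated with GA3 without naming the groups, and the design text names 1 treated group, so the other late-line groups were taken as untreated. A degradome library, which records the 5′ ends of cut transcripts, stands in no group. Fewer cells of a type and less RNA per cell cannot be told apart in such pooled embryos.

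The sequences are shown because they decide which precursor and which target each count can be tied to. They are written as deposited (T for U), with the seed, bases 2 to 8 from the 5′ end, in capitals.
zma-miR168a-5p: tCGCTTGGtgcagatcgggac
aly-miR168a-5p: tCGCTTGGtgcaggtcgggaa
zma-miR168b-3p_R+1: cCCGCCTTgcatcaagtgaat
zma-miR168a-3p_L+3R+1: gATCCCGCcttgcaccaagtgaat
zma-miR162-3p_R+1: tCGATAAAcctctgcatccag
zma-miR168a-5p, the maize guide strand, matches its miRBase entry over all 21 bases. aly-miR168a-5p, named after Arabidopsis lyrata, has the same seed and differs from it at 2 bases, A14G and C21A (zma-miR168a-5p base first, positions from its 5′ end). The 3p sequences of the 2 maize loci differ at 1 of the 21 bases they share, C12T counted from base 1 of zma-miR168b-3p_R+1, with the base of zma-miR168a-3p_L+3R+1 first. The suffixes give bases gained at the left (L) or right (R) end against miRBase, so zma-miR168a-3p_L+3R+1 starts 3 bases earlier, is 24 bases long and has another seed than its counterpart of 21 bases.

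The sequence of zma-miR168a-5p lies in both maize miR168 hairpins, so its counts cannot be tied to either. Each 3p sequence lies in only 1 of them. The hairpins are shown with the listed mature sequences of both arms in capitals.
zma-MIR168a: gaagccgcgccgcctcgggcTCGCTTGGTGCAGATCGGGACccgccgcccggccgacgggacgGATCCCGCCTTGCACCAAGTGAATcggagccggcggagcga
zma-MIR168b: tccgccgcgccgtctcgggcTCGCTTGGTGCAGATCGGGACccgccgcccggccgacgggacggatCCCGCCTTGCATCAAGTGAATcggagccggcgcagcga
zma-MIR168a lies at chr5:76534928-76535031 on the minus strand and zma-MIR168b at chr4:244520636-244520739 on the minus strand, in a genome build that the sources used here do not name. The hairpins have the same base at 98 of 104 positions (94.2%). Of the 36 values of the 3p sequences, 18 lay midway between whole numbers before rounding, and where these fractions come from was not tested. zma-miR162-3p_R+1 comes from zma-MIR162 at chr5:186614119-186614248 on the plus strand, and no 5p sequence of miR162 is listed in the table as held here.

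Values are expected counts as the authors deposited them, and levels are CPM, counts relative to the library total after correction by a TMM factor. Library totals of all listed sequences ran from 230739 to 464871 counts for the late line with GA3, from 106010 to 495392, 99076 to 818830 and 156596 to 437419 for the untreated late line (6, 53 and 78 h), and from 42963 to 170524 and 160440 to 205767 for the early line at 53 h and 6 h. Late-line replicates 1 and 3 at 6 h and replicate 3 at 53 h listed 110 to 126 sequences, against 380 in the deepest library. No list of miRNAs that define the embryo was at hand to check the tissue label. The families miR2118, miR2275 and miR482 were taken as a list for floral tissue, and how well they mark it here was not tested. Of these families, no miR2275 sequence was listed, miR482 had counts in 4 libraries and miR2118 in 17. Their summed level was 132 to 351 CPM with GA3, 0 to 280.2, 140 to 301 and 68.4 to 611 CPM in untreated Yu537A (6, 53 and 78 h), and 641 to 1101 CPM at 53 h and 279.7 to 472 CPM at 6 h in Yu82. It moved with the line at 53 h, and its part in the results on the lines was not tested. Of its tested sequences, osa-MIR2118e-p3_2ss13TA19CT averaged 248 CPM, zma-miR2118b 69.9 CPM and gma-miR482b-3p 39.1 CPM.

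miR168 was listed in all 18 libraries and miR162 in 10. miR168 held 0.344% of all counts on average (0.125% to 0.596%), at 3268 CPM, rank 21 of 48 families. Its leading member zma-miR168a-5p averaged 1846 CPM, with zma-miR168b-3p_R+1 at 1095 CPM and zma-miR168a-3p_L+3R+1 at 325 CPM. aly-miR168a-5p had 9 counts in late-line replicate 2 at 53 h and 0 in the other 17 libraries. zma-miR162-3p_R+1 averaged 41.6 CPM, at most 135 CPM. 4 of the 5 members passed the filter on low counts, the exception being aly-miR168a-5p, and a member listed at 0 was not shown to be absent.

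**Figure D1:**
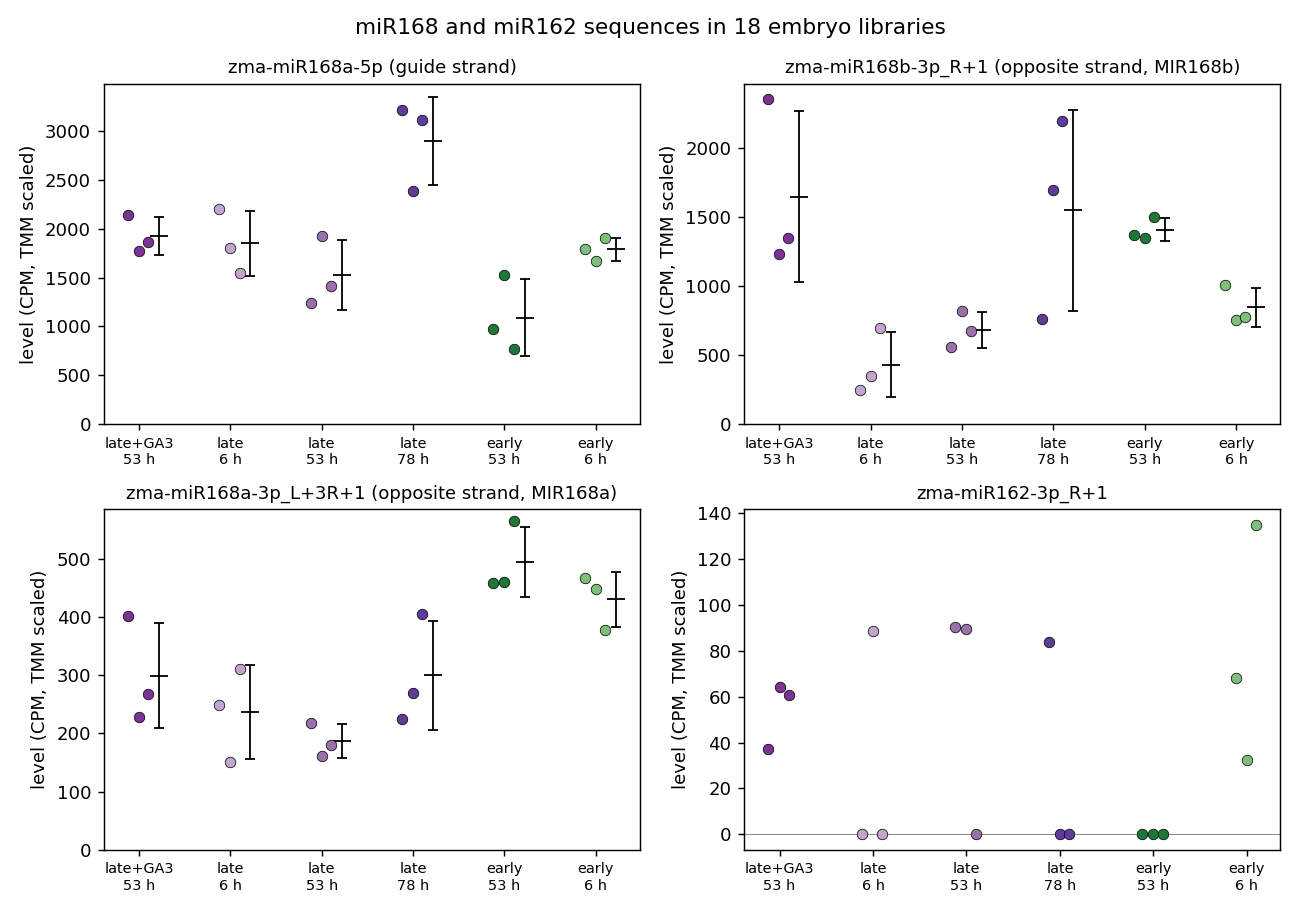
Level in CPM of the 4 members that passed the filter, by group; each point is 1 library, and black marks give the mean ± SD (n = 3), left out for zma-miR162-3p_R+1. zma-miR168a-5p stands between 2384 and 3213 CPM in the late line at 78 h and at 2201 CPM or less in every other library, and zma-miR162-3p_R+1 is at 0 in 8 libraries.

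The total level of miR168 with TMM scaling was ordered by group as follows. It averaged 4754 ± 834 CPM in the late line at 78 h, 3872 ± 901 CPM in the late line with GA3, 3066 ± 203 CPM in the early line at 6 h, 2991 ± 301 CPM in the early line at 53 h, 2518 ± 201 CPM in the late line at 6 h and 2405 ± 475 CPM in the late line at 53 h (SD, n = 3 each). Neighbours in this order overlapped in their libraries with 1 exception: all early-line libraries at 53 h (2803 to 3338 CPM) lay above all late-line libraries at 6 h (2301 to 2699 CPM). The order depends on the scaling. As a share of all listed counts miR168 averaged 0.4995% in the early line at 53 h, 0.419% in the late line at 78 h, 0.391% in the early line at 6 h, 0.362% in the late line with GA3, 0.202% in the late line at 53 h and 0.190% in the late line at 6 h.

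Whether GA3 changes these families in the late line was asked at 53 h. No member passed the test, and the member with the lowest p was the 3p strand of the MIR168b locus, usually the discarded strand. zma-miR168b-3p_R+1 had 571, 577 and 424 counts with GA3, or 2361, 1235 and 1350 CPM, against 284, 276 and 67 counts without, or 559, 821 and 672 CPM. All 3 GA3 libraries lay above all 3 untreated ones, and replicate 1 with GA3 was the highest. The log2 fold change was 1.27 (SE 0.46, unadjusted p = 0.0130, and an adjusted p of 1.00 in the edgeR quasi-likelihood test of 224 sequences). zma-miR168a-3p_L+3R+1 measured 401, 229 and 268 CPM with GA3, against 218, 161 and 180 CPM in untreated embryos, again without overlap (0.68, SE 0.47, adjusted p = 1.00). The guide strand zma-miR168a-5p measured 2142, 1772 and 1860 CPM with GA3, against 1238, 1925 and 1414 CPM in untreated embryos, with overlap (0.33, SE 0.33, adjusted p = 1.00).

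Of the 4 members tested under GA3, 0 passed in edgeR, DESeq2 or limma voom and 1 had an unadjusted p under 0.05; over all sequences 0.0% passed in each of the 3 tools and 3.57% had such a p. The groups did not overlap, with GA3 higher, for 2 of the 4, where 8.48% of all sequences did so. The median log2 fold change was 0.51 for the members and 0.00 for all sequences. The family sum of miR168 was 3872 ± 901 CPM with GA3, against 2405 ± 475 CPM in untreated embryos (0.69, SE 0.33, adjusted p = 0.676 over 48 families, of which 0.0% passed). It lay higher with GA3 without overlap, as for 6.25% of families.

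The late line was also followed from 53 h to 78 h, the time at which miR168 stood highest. Both strands had higher means at 78 h, and none passed. zma-miR168a-5p had 845, 406 and 491 counts at 78 h, or 3213, 2384 and 3109 CPM, against 629, 647 and 141 counts at 53 h, or 1238, 1925 and 1414 CPM. All libraries at 78 h lay above all at 53 h (log2 fold change 0.93, SE 0.33, unadjusted p = 0.0132, adjusted p = 0.488 by edgeR). zma-miR168b-3p_R+1 stood at 760, 1697 and 2197 CPM at 78 h and at 559, 821 and 672 CPM at 53 h, where replicate 1 at 78 h fell within the range at 53 h (1.18, SE 0.46, adjusted p = 0.488). zma-miR168a-3p_L+3R+1 stood at 224, 270 and 405 CPM at 78 h and at 218, 161 and 180 CPM at 53 h, without overlap (0.68, SE 0.47, adjusted p = 0.784). The family sum was 4754 ± 834 CPM at 78 h and 2405 ± 475 CPM at 53 h, 1.98-fold (0.98, SE 0.33, unadjusted p = 0.0079, adjusted p = 0.378). All 3 sums at 78 h lay above those at 53 h, as for 12.5% of families, of which 0.0% passed.

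From 53 h to 78 h 0 of 4 members passed in edgeR, DESeq2 or limma voom and 2 had an unadjusted p under 0.05, where 0.0%, 0.448% and 0.446% of all sequences passed in these tools and 7.59% had such a p. The groups did not overlap, with 78 h higher, for 2 of 4 members and for 9.82% of all sequences. The comparison shares the untreated 53 h libraries with that of GA3.

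From 6 h to 53 h the total of miR168 had log2 fold changes of -0.07 (SE 0.33) in the late line and -0.04 (SE 0.33) in the early line, with signs that depend on the processing. In the early line the guide strand and the 3p strands had log2 fold changes of opposite sign, and none passed. zma-miR168a-5p had 207, 329 and 69 counts at 53 h, or 970, 1527 and 764 CPM, against 449, 410 and 424 counts at 6 h, or 1794, 1668 and 1906 CPM. All libraries at 53 h lay below all at 6 h (-0.72, SE 0.33, unadjusted p = 0.0471, adjusted p = 0.32 by edgeR). zma-miR168b-3p_R+1 stood at 1373, 1351 and 1505 CPM at 53 h and at 1011, 753 and 773 CPM at 6 h, all higher at 53 h (0.74, SE 0.45, adjusted p = 0.513). zma-miR168a-3p_L+3R+1 stood at 459, 460 and 564 CPM at 53 h and at 468, 448 and 378 CPM at 6 h, with overlap (0.20, SE 0.46, adjusted p = 0.935). In the late line zma-miR168a-5p stood at 1238, 1925 and 1414 CPM at 53 h and 2201, 1804 and 1545 CPM at 6 h, and zma-miR168b-3p_R+1 at 559, 821 and 672 CPM at 53 h and 249, 345 and 697 CPM at 6 h, both with overlap (-0.28, SE 0.33, adjusted p = 1.00, and 0.66, SE 0.46, adjusted p = 0.887). zma-miR168a-3p_L+3R+1 in that line stood at 218, 161 and 180 CPM at 53 h and at 249, 151 and 311 CPM at 6 h, with overlap as well (-0.34, SE 0.47, adjusted p = 1.00).

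In the early line 0 of 4 members passed in edgeR or DESeq2, and 2 had an unadjusted p under 0.05, where 1.34% (edgeR), 6.73% (DESeq2) and 14.7% of all sequences did. limma voom called zma-miR162-3p_R+1 alone of the 4, and 11.2% of all sequences. The groups did not overlap for 3 of 4 members and 26.3% of all sequences. In the late line 0 of 4 passed in any of the 3 tools and 0 had an unadjusted p under 0.05, against 1.79% (edgeR), 2.69% (DESeq2), 2.23% (limma voom) and 8.93% of all sequences, and the members' groups all overlapped, as those of all but 8.04% did. A test of the difference between the lines in this change called 0 of 4, with 1 unadjusted p under 0.05, that of miR162 (0.0% and 7.59% of all sequences).

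How the lines differ was asked at 6 h and at 53 h. The 3p strands had lower means in the late line at both times. The guide strand did not with TMM, but with library totals it had negative log2 fold changes at 6 h (-0.72) and 53 h (-0.43). At 53 h zma-miR168a-3p_L+3R+1 had 111, 54 and 18 counts in the late line, or 218, 161 and 180 CPM, against 98, 99 and 51 counts in the early line, or 459, 460 and 564 CPM. The late-line libraries all lay below the early-line ones (log2 fold change -1.40, SE 0.47, unadjusted p = 0.0089, adjusted p = 0.0626 by edgeR). zma-miR168b-3p_R+1 measured 559, 821 and 672 CPM in Yu537A, against 1373, 1351 and 1505 CPM in Yu82, also without overlap (-1.04, SE 0.45, adjusted p = 0.109). zma-miR168a-5p measured 1238, 1925 and 1414 CPM in Yu537A, against 970, 1527 and 764 CPM in Yu82, with overlap (0.49, SE 0.33, adjusted p = 0.29).

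At 6 h zma-miR168b-3p_R+1 had 19, 121 and 92 counts in the late line, or 249, 345 and 697 CPM, against 253, 185 and 172 counts in the early line, or 1011, 753 and 773 CPM. The groups did not overlap (-0.97, SE 0.46, adjusted p = 0.18). zma-miR168a-3p_L+3R+1 measured 249, 151 and 311 CPM in Yu537A, against 468, 448 and 378 CPM in Yu82, again without overlap (-0.87, SE 0.47, adjusted p = 0.227). zma-miR168a-5p measured 2201, 1804 and 1545 CPM in Yu537A, against 1794, 1668 and 1906 CPM in Yu82, with overlap (0.05, SE 0.33, adjusted p = 0.98), and this sign turned with RLE scaling as well as with library totals. Late-line replicate 1 had 19 counts of each 3p sequence, so both levels there rest on few reads. The family sum was 2518 ± 201 CPM in Yu537A and 3066 ± 203 CPM in Yu82 at that time (-0.28, SE 0.33, adjusted p = 0.677; 6.25% of families passed). The late line lay lower without overlap, as for 10.4% of families. With library totals the sum had -1.05 (adjusted p = 0.0905), zma-miR168b-3p_R+1 -1.69 (0.0767) and zma-miR168a-3p_L+3R+1 -1.63 (0.0729).

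Between the lines at 53 h 0 of 4 members passed in edgeR and 3 had an unadjusted p under 0.05, where 10.7% and 41.5% of all sequences did. DESeq2 called zma-miR168a-3p_L+3R+1 (adjusted p = 0.0226) and zma-miR162-3p_R+1, and limma voom the second of these. DESeq2 called 32.0% of the 197 sequences to which it gave an adjusted p, and limma voom 30.8% of all sequences. The groups did not overlap, with the late line lower, for 2 of 4 members and 16.5% of all sequences. At 6 h 0 of 4 passed in edgeR, DESeq2 or limma voom and 1 had an unadjusted p under 0.05 (6.7%, 13.9% and 21.0% of all sequences passed in these tools and 27.7% had such a p), and the late line lay below without overlap for 2 of 4 members and 19.2% of all. The TMM factors ran from 1.27 to 2.11 in the early line at 53 h and from 0.623 to 1.01 in the late line, and library totals alone shifted the median of all sequences to -0.76 at 53 h (0.17 with TMM) and to -1.01 at 6 h (-0.28 with TMM). They shifted it to 0.16 for GA3 over untreated (0.00 with TMM), to 0.00 for 53 h over 6 h in Yu82 (-0.31) and to -0.54 for GA3 over Yu82 (0.27). With library totals the family sum at 53 h passed (-1.30, adjusted p = 0.0314 by edgeR, against -0.31, SE 0.33, adjusted p = 0.54 with TMM, where 20.8% of families passed), and so did zma-miR168b-3p_R+1 (-2.06, adjusted p = 0.0326) and zma-miR168a-3p_L+3R+1 (-2.48, adjusted p = 0.0085).

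**Figure D2:**
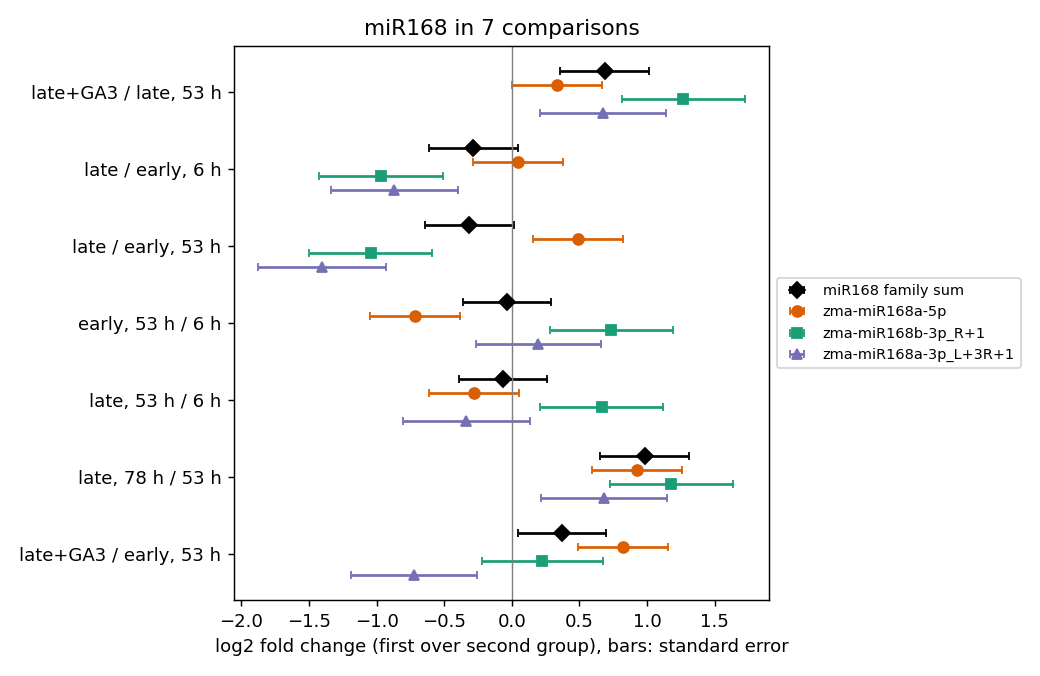
Log2 fold changes of miR168 in 7 comparisons (first over second group) for the family sum and its 3 tested sequences; points are edgeR estimates and bars their standard errors. Both 3p sequences lie left of 0 for late over early at 6 h and 53 h, while zma-miR168a-5p lies right of it at 53 h (0.49), and for 78 h over 53 h in the late line all 4 values are positive.

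The late line with GA3 was also set against the early line at 53 h. zma-miR168a-5p measured 2142, 1772 and 1860 CPM with GA3, all above the 970, 1527 and 764 CPM of the early line (0.82 on the log2 scale, SE 0.33, adjusted p = 0.129 by edgeR). With library totals the value was 0.04 (adjusted p = 0.962). With TMM and without early-line replicate 2 it passed (1.23, adjusted p = 0.0458), while no other left-out library changed the call. zma-miR168b-3p_R+1 stood at 2361, 1235 and 1350 CPM with GA3, around the 1373, 1351 and 1505 CPM of the early line (0.23, SE 0.45, adjusted p = 0.839), with a sign that turned with library totals (-0.63). zma-miR168a-3p_L+3R+1 stood at 401, 229 and 268 CPM with GA3, below the 459, 460 and 564 CPM of the early line (-0.72, SE 0.46, adjusted p = 0.313), and had -1.60 with library totals (adjusted p = 0.074). Of the 4 members 0 passed in edgeR or DESeq2 and 2 had an unadjusted p under 0.05, where 6.7% (edgeR), 16.1% (DESeq2) and 29.5% of all sequences did. The DESeq2 share is of the 192 sequences to which it gave an adjusted p. limma voom called zma-miR162-3p_R+1 and 21.4% of all sequences. The groups did not overlap for 3 of 4 members and 37.9% of all sequences.

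The share of miR168 counts on the 3p strand is a ratio within each library and does not depend on the scaling. Over the 18 libraries it averaged 42.7% and ran from 18.4% to 73.0%, and it was above 50% in 4 libraries, all 3 of the early line at 53 h and 1 with GA3. It was 56.3%, 45.2% and 46.5% with GA3 in the late line at 53 h. In the late line without GA3 it was 18.4%, 21.6% and 39.5% at 6 h, 38.6%, 33.5% and 37.6% at 53 h, and 23.5%, 45.2% and 45.6% at 78 h. In the early line it was 65.4%, 54.2% and 73.0% at 53 h and 45.2%, 41.8% and 37.6% at 6 h.

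3 of the 7 comparisons of this share had no overlap between groups. It was 49.4 ± 6.06% with GA3 and 36.6 ± 2.71% without in the late line, 36.6 ± 2.71% in the late and 64.2 ± 9.46% in the early line at 53 h, and 64.2 ± 9.46% at 53 h and 41.6 ± 3.77% at 6 h in the early line (SD, n = 3 each). Each had p = 0.1 by the two-sided exact permutation test, the smallest that 3 against 3 allows, and an adjusted p of 0.233 over the 7. At 6 h the late line had 26.5 ± 11.3% and the early line 41.6 ± 3.77% (exact p = 0.2, adjusted p = 0.28), with overlap through late-line replicate 3.

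The 3p counts were divided unequally between the loci they are named for. zma-miR168b-3p_R+1 made up 74.7% of the 3p counts on average and at least 62.7% in every library but late-line replicate 1 at 6 h, where it was 50.0% of 38 counts. This share was 84.4 ± 1.01% in the late line with GA3, 62.9 ± 11.2%, 78.1 ± 5.90% and 82.6 ± 4.78% in untreated Yu537A (6, 53 and 78 h), and 74.1 ± 1.19% and 66.1 ± 2.99% in the early line at 53 h and 6 h (SD, n = 3 each). In the early line all 3 libraries at 53 h (72.7% to 74.9%) lay above all 3 at 6 h (62.7% to 68.4%), and so they did in the untreated late line (71.9% to 83.6% at 53 h and 50.0% to 69.5% at 6 h). This share was looked at after its values were seen and was given no test. It sets a sequence of 21 bases against another of 24 bases. Of the 36 3p values behind this share and the 3p share, 18 lay midway between whole numbers before rounding, from a source not tested.

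**Figure D3:**
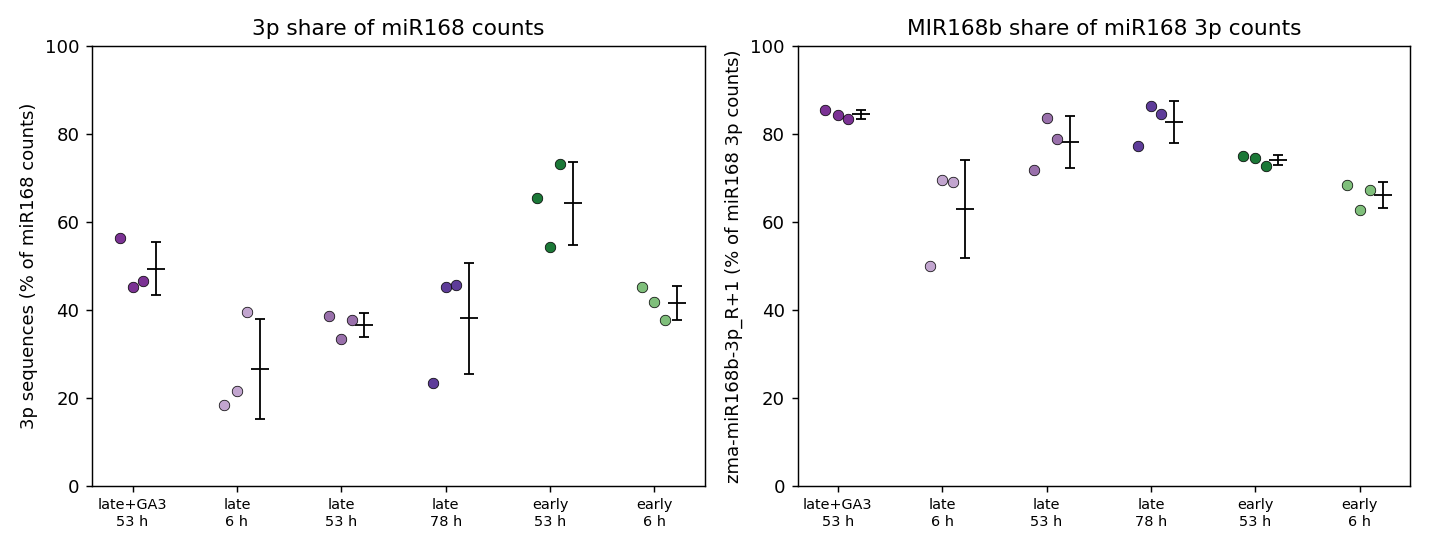
Left, 3p sequences as a percentage of miR168 counts; right, zma-miR168b-3p_R+1 as a percentage of miR168 3p counts. Points are libraries and black marks the mean ± SD (n = 3). The early line at 53 h stands at 54.2% to 73.0% on the left, and the late line with GA3 at 83.5% to 85.5% on the right.

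miR162 had few counts in these libraries, at most 46. zma-miR162-3p_R+1 had 9, 30 and 19 counts in the late line with GA3. In the late line without GA3 it had 0, 31 and 0 counts at 6 h, 46, 30 and 0 at 53 h, and 22, 0 and 0 at 78 h. In the early line no library had counts of it at 53 h, and those at 6 h had 17, 8 and 30. The late line with GA3 and the early line at 6 h were thus the groups with counts in every library, at 37.2 to 64.2 CPM and 32.5 to 135 CPM.

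The libraries at 0 were mostly the shallower ones. The 8 libraries at 0 had totals from 42963 to 170524 counts (median 140458) and the 10 with counts had totals from 160440 to 818830 (median 413251). Totals of 2 libraries at 0, early-line replicate 2 at 53 h and late-line replicate 3 at 78 h, exceeded the lowest total with counts. After the TMM correction no such overlap remained. Corrected totals reached at most 215407 in the libraries at 0 (early-line replicate 2 at 53 h). They were at least 222510 in those with counts (early-line replicate 3 at 6 h). The smallest count listed for this sequence was 8, which equals 37.1 to 105 CPM in the libraries at 0, within the range where it was listed. That is no shown limit of listing, since the smallest count of any sequence in a library was 2. In the libraries at 0 a single count equals 4.64 to 13.1 CPM. Against a group listed at 0 throughout no fold is given. By edgeR it did not pass for 53 h over 6 h in Yu82 (adjusted p = 0.218), between the lines at 53 h (0.0939) or between the late line with GA3 and the early line (0.129). limma voom called all 3 (adjusted p = 0.026, 0.029 and 0.017) and DESeq2 the second (0.0433). The calls of miR162 thus differed between the tools, and the part of depth in them was not tested.

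**Figure D4:**
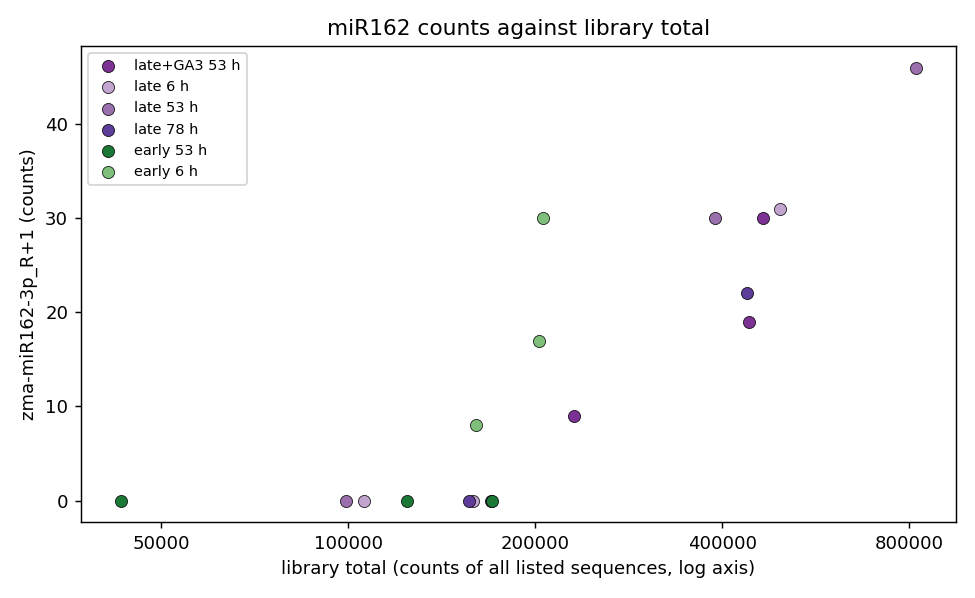
Counts of zma-miR162-3p_R+1 against the library total (log axis), 1 point per library, coloured by group. The 8 libraries at 0 lie at totals of 170524 or less, and the 10 libraries with counts at 160440 or more.

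The degradome table, made from 1 library, gives alignments of small RNAs to transcripts and the reads that start at each expected cut. It holds 361 alignments of 4 of the members, 138 of them with reads. The sources used here do not define the authors' categories; in the usual scheme category 0 marks the position with the most reads on a transcript and category 4 a position with a single read. Over the whole table as held here, 12.4% of alignments had reads. Of those, 22.7% were of category 0 or 1, and 5.19% had a p of at most 0.05 as the authors give it.

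The miR168 sites with reads all belonged to aly-miR168a-5p, which had 9 counts in the small RNA libraries. It had 197 alignments, 111 with reads, of which 40 were of category 0 or 1. The sites lie on transcripts of 4 genes and on transcripts with no gene ID, and isoforms of 1 gene are not independent sites. Zm00001d011096 had 45 transcripts with reads, 16 of them of category 0 or 1, with at most 8 reads. Zm00001d035747 had 25, with 10 of category 0 or 1 and at most 8 reads. Zm00001d002650 had 19, with 9 of category 0 or 1 and at most 7 reads, and Zm00001d026111 had 13, with 1 of category 1 and at most 2 reads. All 4 carry the GO terms nucleic acid binding and protein binding and the KOG class translation, and the table gives none of them a name. The reads began opposite base 10 of the small RNA at every site, the position at which ARGONAUTE cuts. The alignment penalty was 4 at each, the highest that the table lists, and the lowest p the authors give was 0.217.

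The abundant maize guide zma-miR168a-5p had 8 alignments and none with reads: 2 on Zm00001d006682, annotated to nucleic acid binding, 1 on Zm00001d028837, annotated to the anaphase-promoting complex, and 5 on transcripts with no gene ID. None of its alignments was on the 4 genes above, where aly-miR168a-5p stood at the highest penalty listed. Pairs with a higher penalty are not listed, so whether zma-miR168a-5p also pairs with these sites was not tested. zma-miR168b-3p_R+1 had 16 alignments, 7 of them on Zm00001d047683, annotated as a UDP-glucose 4-epimerase, and 1 on Zm00001d022594, annotated as a phospholipase D, all without reads.

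zma-miR162-3p_R+1 had 140 alignments, 27 with reads, none of category 0 or 1. Of these 22 were on transcripts of Zm00001d027412, which carries the GO term ribonuclease III activity, the activity of Dicer enzymes, and which the table does not name. They had the lowest penalty of the members (2), 1 or 2 reads each and a p of 1.00 after rounding, with 2 of category 2 and 20 of category 4. Their reads began opposite base 11 and not base 10. This base was counted from the end of the alignment without allowance for gaps, and where the offset comes from was not tested. The remaining 5 were on transcripts with no gene ID. It also aligned to 38 transcripts of Zm00001d018976 and 44 of Zm00001d018977, both annotated as DNMT1, a DNA methyltransferase, without reads. No annotation in the table held the words argonaute or dicer or the names of other small RNA pathway proteins searched. The genes with reads at miR168 or miR162 sites carry no name there, so this search could not tell what they are.

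**Figure D5:**
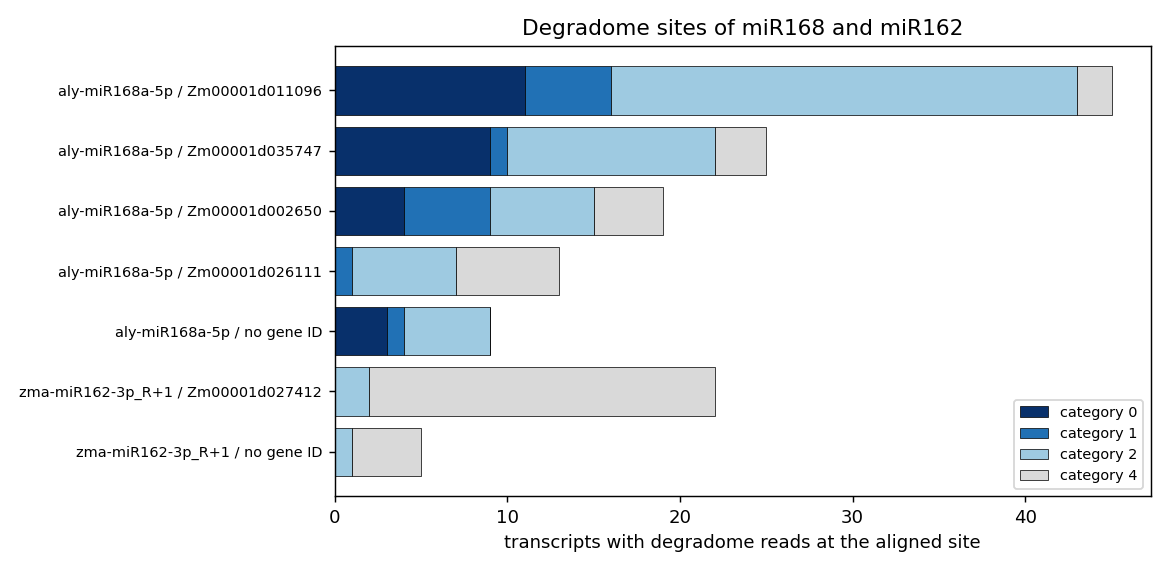
Number of transcripts with degradome reads at the aligned site, by small RNA and gene, coloured by the authors' category. Categories 0 and 1 appear for aly-miR168a-5p alone (40 transcripts), and the sites of zma-miR162-3p_R+1 are of category 2 and 4.

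Other miRNAs tied to the pathway were taken as a list: miR390, which triggers tasiRNAs through ARGONAUTE7, miR403, which targets ARGONAUTE2 in dicots, and miR482, miR2118 and miR2275, which trigger phased siRNAs. The table holds 7 sequences of them, none of miR403 or miR2275, and 5 were tested. In the late against the early line 0 were higher and 1 lower at 6 h and at 53 h, each time zma-miR2118b (adjusted p = 0.0446 and 0.0193 by edgeR), which had 0 counts in each late-line library there. Of all sequences 2.68% were higher and 4.02% lower at 6 h, and 6.7% higher and 4.02% lower at 53 h. The median log2 fold change of the list was -0.31 at 6 h and -1.94 at 53 h, against -0.28 and 0.17 for all sequences. In the other 5 comparisons 0 passed in either direction.

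The sequences whose levels ran most like the members were sought among 105 tested sequences outside both families with a mean of at least 100 CPM. The measure was the root mean square difference of log2(CPM + 1), each sequence centred on its mean over the 18 libraries. Nearest to zma-miR168a-5p were zma-miR319a-3p_R+1 (0.41), osa-miR444f (0.44) and osa-miR444b.1_L+1 (0.48), against a median of 1.23 over the candidates. Its own SD over the libraries was 0.51 on this scale, near the score of a sequence of constant level. The 3 scores were below it, and the neighbours' own SDs were 0.45, 0.29 and 0.46. How much movement they share beyond a flat profile was not tested. Nearest to zma-miR162-3p_R+1 were zma-miR166j-3p (2.50), zma-miR827-3p (2.53) and zma-miR827-5p_L+1 (2.55), against a median and an own SD of 3.17, so none of the candidates ran close to it.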

How the data were processed

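Embryo small RNAs were sequenced in 18 libraries, and 1 degradome library was added. Per the file headers, the authors matched reads to miRBase miRNAs and hairpins and to a genome; the sources used here name no tool, version or build for this. The authors deposited expected counts for each precursor entry, with a sequence's reads split between its entries, and a second set of columns as normalized signal, not used here. The deposited degradome table gives read counts per site, 2 columns of normalized signal (not used), a p-value per site, an alignment score (a penalty) and an other measure, the category. Both tables were held in part (9 and 5176 lines empty).

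Entries were summed to 536 sequences and rounded, and 6 with values equal to another sequence in every library were merged, none of them a member. Counts were tested in edgeR 4.0.16 (R 4.3.3) by the two-sided quasi-likelihood F test, with TMM scaling, a minimum count of 10 and 1 mean per group over all 18 libraries, which kept 224 sequences and 48 families. The family sums use the scaling of the sequences. P-values were adjusted by Benjamini-Hochberg across every sequence or family tested, and the threshold was 0.05. Shares called by DESeq2 are of the sequences to which it gave an adjusted p, from 192 to 223 by comparison. Alternatives were DESeq2 1.42.0, limma 3.58.1 (voom), RLE scaling, library totals alone, no filter, the compared groups alone, the replicate number as a block, 1 entry per sequence and left-out libraries. The edgeR test was tried on simulated counts with a common dispersion and as many sequences raised as lowered in 1 group. That setting holds no shift in scaling between groups, so it does not bear on results that depend on the scaling. Tables and plots were made in Python 3.11.15 with numpy 2.4.6, pandas 2.3.3, matplotlib 3.10.9 and scipy 1.17.1. No molecular identifiers are described for the reads, so that totals bear on counting error and not on the number of molecules.

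All members are described, those past the filter in every library, with up to 6 degradome targets per family of lowest p among categories 0 and 1, and the 3 sequences of most similar levels; other degradome genes named were chosen after their values were seen. Members, lists and comparisons were chosen with earlier results of these data known. Nothing in the labels ties equal replicate numbers. The deviations of libraries with equal numbers had a correlation over 0.1 for each of 3 pairs in 1 comparison, the late line at 78 h and 53 h (0.451, 0.187 and 0.307), and blocking changed no call there.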

Additional observations from a re-analysis of the deposited data

How the results depend on the processing

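No member passed in the fit the report gives, so a stable result here is one that stays below the threshold. The cause of the changes given below was not tested. Leaving out 1 library each, the miR168 sum (log2) ran from 0.54 to 0.93 for GA3 over untreated, from -0.51 to -0.24 and -0.51 to -0.23 for late over early at 6 h and 53 h, from -0.084 to 0.060 and -0.10 to 0.36 for 53 h over 6 h in the early and late line, from 0.68 to 1.13 for 78 h over 53 h, from 0.21 to 0.58 for GA3 over early, and from -0.16 to 0.29 for line by time, with no adjusted p under 0.05. The sign of the miR168 sum turned for 53 h over 6 h in the early line with RLE scaling (0.088), library totals (0.35), 1 entry per sequence (0.18) and the compared groups alone (0.10), and in the late line with library totals (0.093), DESeq2 (0.011), 1 entry per sequence (0.15), without replicates 3 at 6 h and 53 h (0.011) and with the compared groups alone (0.090). It also turned for GA3 over early with library totals (-0.46) and for line by time with DESeq2 (0.053), without those replicates (0.034) and with the compared groups alone (0.082). With library totals it passed for late over early at 53 h (-1.30).

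zma-miR162-3p_R+1 turned for GA3 over untreated (-0.17) with RLE scaling (0.028), library totals (0.10), limma voom (0.30), the replicate block (0.57) and 1 entry per sequence (0.12). It passed in DESeq2 (5.69) and limma voom (3.87) for late over early at 53 h, and in limma voom for 53 h over 6 h in the early line (-4.46) and for GA3 over early (4.17). Leaving out libraries, these fitted values ran from -0.46 to 0.51 for GA3 over untreated, from -7.21 to -0.70 and 6.28 to 7.36 for late over early at 6 h and 53 h, from -7.61 to -6.61 and 0.43 to 6.72 for 53 h over 6 h in the early and late line, from -6.74 to -0.44 for 78 h over 53 h, from 6.52 to 7.14 for GA3 over early and from 7.61 to 13.9 for line by time. They are no folds, since groups at 0 enter them. The replicate block changed no call (miR168 sum 0.68 under GA3 and 0.98 for 78 h over 53 h).

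zma-miR168b-3p_R+1 turned for GA3 over early with library totals (-0.63) and over left-out libraries (-0.082, without GA3 replicate 1, to 0.34), and for line by time (-0.07) with DESeq2 (0.013), the replicate block (0.0019), the compared groups alone (0.061), both late-line replicates 3 left out (0.48), and left-out libraries (-0.47 to 0.46). At 53 h, late over early, it passed with the compared groups alone (-1.21), and zma-miR168a-3p_L+3R+1 passed with DESeq2 (-1.24), 1 entry per sequence (-1.48) and the compared groups alone (-1.58). For 53 h over 6 h in the late line zma-miR168a-3p_L+3R+1 ran from -0.47 to 0.039 over left-out libraries. zma-miR168a-5p turned for late over early at 6 h with RLE scaling (-0.051), library totals (-0.72), 1 entry per sequence (-0.14), the compared groups alone (-0.21) and left-out libraries (-0.25 to 0.16), at 53 h with library totals (-0.43), and for 53 h over 6 h in the late line with left-out libraries (-0.37 to 0.18).

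The 3p share of miR168 moved, in percentage points over left-out libraries, from 9.33 to 14.9 for GA3 over untreated, from -21.5 to -11.0 and -32.7 to -23.3 for late over early at 6 h and 53 h, from 18.3 to 27.7 and 6.02 to 16.5 for 53 h over 6 h in the early and late line, from -2.22 to 8.84 for 78 h over 53 h, and from -19.9 to -10.5 for GA3 over early. With 2 against 3 libraries the exact test cannot go below 0.2. The miR168 degradome sites numbered 40 in category 0 or 1, 27 in category 0, 111 over all categories and 0 with the authors' p at most 0.05, and the miR162 sites 0 and 27 over all categories.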
